A study of Mus musculus with 40 samples.

Results

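The 9 transcription factor genes of the myeloid lineage examined here, Spi1, Cebpa, Cebpb, Cebpd, Cebpe, Gfi1, Irf8, Klf4 and Maf, were taken by symbol from the 45706 genes measured, and each was found. RNA had been sequenced from 40 libraries in 10 groups of 4, each group holding 1 FACS-sorted cell type from 1 source. Neutrophils (CD45+ EpCAM- CD11b+ MHCII- Ly6C-low Ly6G+) and monocytes (CD45+ EpCAM- CD11b+ MHCII- Ly6C-high Ly6G-) were taken from colon tumors and from the blood of either tumor-bearing or healthy mice. Epithelial cells (CD45- EpCAM+) and stromal cells (CD45- EpCAM-) came from colon tumors and from healthy colon. Tumor-bearing mice carried Apc fl/fl and the Cdx2CreERT2 transgene, in which Cre is driven by the promoter of an intestinal epithelial gene, on a strain background labelled C57Bl6/Sv129 in 1 library, with the number in that label counting up from library to library, and had received tamoxifen at 25 mg/kg once at 8 to 10 weeks of age. Healthy mice were C57Bl6 with no transgene and no tamoxifen, so in every comparison of tumor-bearing with healthy mice the tumor, the strain background, the transgene and the agent cannot be told apart. Sex may differ between groups too. Xist, a transcript of female cells, was at 34.6, 15.2, 27.6 and 6.68 RPKM in healthy epithelial libraries. In tumor epithelial libraries it was at 0.0204, 0.0194, 0.0413 and 46.8 RPKM. Some blood libraries were pools of animals.

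These factors bind DNA and set which genes a myeloid precursor uses. PU.1, the product of Spi1, is needed for both neutrophils and monocytes, and C/EBPα opens the granulocyte program. C/EBPε and Gfi1 act while neutrophils form their granules in bone marrow, whereas Irf8 and Klf4 promote monocytes and Maf (c-Maf) is a macrophage and T-cell factor that induces Il10. C/EBPβ and C/EBPδ are induced by inflammatory signals and drive emergency granulopoiesis and acute-phase genes. Klf4 is also made by differentiated epithelial cells and by fibroblasts.

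Levels are given as RPKM, a read count scaled to the transcript's length and to the mapped reads of the library, so that genes of different length can be compared. Libraries held 10717873 to 38002939 counts, of which mitochondrial genes took 5.34% to 83.9%. The sorted myeloid cells matched their gates. All 7 neutrophil markers were detected in each neutrophil library, with a summed level of 1905 to 19761 RPKM, against 9.46 to 176 RPKM in blood and tumor monocytes. Monocyte markers summed to 125 to 466 RPKM in monocytes and 5.18 to 21.6 RPKM in neutrophils. Epithelial RNA was present in the tumor myeloid libraries. The median level of 11 epithelial markers, as a percentage of their mean in tumor epithelial cells, was 71.9%, 13.8%, 17.3% and 5.01% in tumor neutrophil libraries 1 to 4 and 0.695%, 14.9%, 4.32% and 3.59% in tumor monocyte libraries 1 to 4, and at most 0.248% in any blood library. Tumor neutrophil library 1 also had the lowest summed neutrophil markers of all the neutrophil libraries, and results that rest on it are given with and without it. In bulk samples, fewer cells of a type and less RNA per cell cannot be told apart.

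Spi1 (chr2:91082390-91115756, + strand, mm10) was the leading member in both kinds of circulating myeloid cell. In tumor-bearing mice it was measured at 33.2, 38.1, 31.6 and 57.1 RPKM in blood neutrophils and at 35.8, 22.9, 15.2 and 14.7 RPKM in blood monocytes, which is 63.7% and 46.2% of the summed mean level of the 9 genes. It ranged over 11.5 to 34.6 RPKM in tumor neutrophils and 13.1 to 20.4 RPKM in tumor monocytes. No epithelial library exceeded 0.101 RPKM. The lowest myeloid group in the order of means, tumor monocytes at 16.8 ± 3.00 RPKM (SD, n = 4), stood apart from the next group, tumor stromal cells at 2.13 ± 2.05 RPKM, and the 6 myeloid groups above that gap each overlapped their neighbour.

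**Figure D1:**
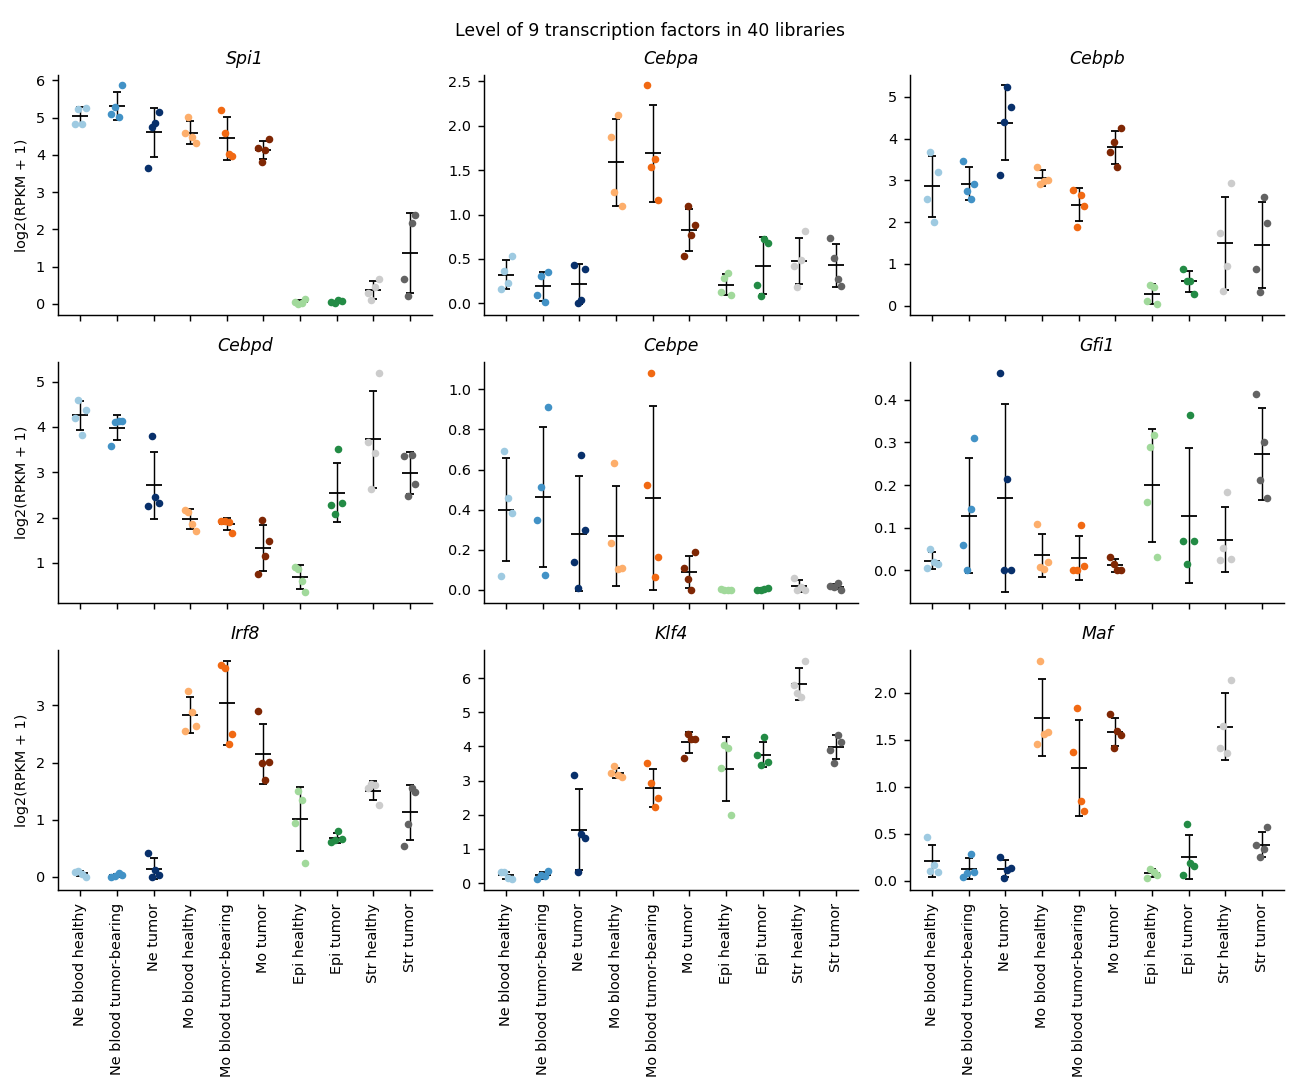
Levels of the 9 genes as log2(RPKM + 1) in 40 libraries, with 1 panel per gene and its own vertical axis. Points are libraries, and horizontal bars with error bars are means ± SD of 4 libraries (Ne, neutrophils; Mo, monocytes; Epi, epithelial cells; Str, stromal cells). Spi1 is high in all 6 myeloid groups, Irf8, Maf and Cebpa separate monocytes from neutrophils, and Cebpe and Gfi1 stay low in every library.

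The cell types were compared within each source to find which members tell a neutrophil from a monocyte. A gene was called at a Benjamini-Hochberg adjusted p under 0.05 with an absolute log2 fold change above 1.5 in edgeR's quasi-likelihood test. In healthy blood 5 of the 8 members tested were called, against 37.1% of all genes tested. In blood of tumor-bearing mice 6 of 8 were called, against 38% of all genes, and in tumors 3 of 7, against 7.45%. The genes that favoured monocytes were Irf8, Klf4, Maf and Cebpa, and Cebpd was the one called higher in neutrophils in all 3 sources.

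Irf8 (chr8:120736358-120756694, + strand), the monocyte and dendritic cell factor, had the widest gap. Healthy blood monocytes held 4.89, 8.55, 6.38 and 5.24 RPKM and healthy blood neutrophils 0.0672, 0.0705, 0.0413 and 0.00333 RPKM. In tumor monocytes it was 6.51, 3.00, 2.23 and 3.05 RPKM and in tumor neutrophils 0.340, 0.00461, 0.0900 and 0.0222 RPKM. The 2 cell types did not overlap in any source. The log2 fold change of neutrophils over monocytes was -6.36 ± 0.62 (SE) in healthy blood, -7.92 ± 0.77 in blood of tumor-bearing mice and -4.83 ± 0.95 in tumors, with edgeR adjusted p of 4.2e-05, 2.3e-05 and 0.0115. The highest tumor neutrophil value was that of the epithelial-rich library 1, and without it the change was -6.11 with an edgeR adjusted p of 0.00309. The annotation places Gm20388 over Irf8 on the same strand, so reads of this pair could not be separated.

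Klf4 (chr4:55527143-55532466, - strand) was nearly absent from circulating neutrophils. Healthy blood monocytes held 8.30, 9.74, 7.95 and 7.57 RPKM and healthy blood neutrophils 0.243, 0.243, 0.0993 and 0.0917 RPKM. The log2 difference was -4.90 ± 0.35 (SE) in healthy blood and -4.43 ± 0.49 in blood of tumor-bearing mice (edgeR adjusted p = 8.4e-06 and 4.8e-05). All 4 tumor neutrophil libraries were also below all 4 tumor monocyte libraries, with a log2 difference of -2.34 ± 0.67 that did not pass the test (edgeR adjusted p = 0.0590). Without the epithelial-rich library 1 that difference was -3.41 (edgeR adjusted p = 0.00381), and 6 of 10 alternative analyses called it with all 8 libraries. Tumor neutrophil and tumor monocyte libraries 2 to 4 carry the same animals in their titles, and with the animal as a block the difference was -3.67 (edgeR adjusted p = 0.0200).

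Maf (chr8:115682942-115707794, - strand) was measured at 1.74, 4.08, 1.95 and 2.01 RPKM in healthy blood monocytes and at 0.384, 0.0780, 0.122 and 0.0702 RPKM in healthy blood neutrophils. In tumors the values were 2.43, 1.66, 2.01 and 1.92 RPKM in monocytes and 0.189, 0.0185, 0.0795 and 0.0945 RPKM in neutrophils. The cell types were apart in each source, with log2 differences of -3.15 ± 0.60 (SE), -3.16 ± 0.70 and -4.08 ± 0.58 in healthy blood, tumor-bearing blood and tumors (edgeR adjusted p = 0.00186, 0.00336 and 0.00255). Cebpa (chr7:35119293-35121928, + strand) showed the same order of cell types. It lay between 1.14 and 3.36 RPKM in healthy blood monocytes and between 0.118 and 0.447 RPKM in healthy blood neutrophils. Its log2 difference was -2.25 ± 0.51 in healthy blood and -3.27 ± 0.73 in tumor-bearing blood (edgeR adjusted p = 0.00505 and 0.00379), and -1.89 ± 1.01 in tumors, where it was not called (edgeR adjusted p = 0.290).

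Cebpd (chr16:15887286-15891031, + strand), the acute-phase C/EBP factor, was the reverse. Healthy blood neutrophils held 17.4, 23.2, 13.2 and 19.8 RPKM and healthy blood monocytes 3.52, 3.36, 2.62 and 2.25 RPKM. In tumors the neutrophil values were 3.79, 12.9, 4.48 and 3.97 RPKM against 0.678, 2.82, 1.21 and 1.78 RPKM in monocytes. Neutrophils were above monocytes without overlap in every source. The log2 difference was 3.42 ± 0.22 (SE) in healthy blood, 3.26 ± 0.26 in tumor-bearing blood and 2.74 ± 0.74 in tumors (edgeR adjusted p = 4.8e-06, 6.9e-06 and 0.0458). The call in tumors was near the threshold. It was lost in 6 of 10 alternative analyses of all 8 libraries, among them limma-voom (adjusted p = 0.0834) and the animal as a block (2.44, edgeR adjusted p = 0.118). It was also lost in 7 of the 8 fits that left out 1 library, with an adjusted p of 0.0669 to 0.147 in edgeR, and kept without the epithelial-rich library 1 (edgeR adjusted p = 0.0292).

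Spi1 was higher in neutrophils at each source by 1.23 ± 0.20, 1.61 ± 0.31 and 1.19 ± 0.45 on the log2 scale (SE), and it was called in tumor-bearing blood (edgeR adjusted p = 0.00142). In healthy blood its adjusted p was 8.8e-04 in edgeR with a change under the fold threshold, and in tumors it was 0.139. The call in tumor-bearing blood was lost in 4 of 10 alternative analyses. Among these were no filter on low counts, where the change was 1.48, and 1 model of all 40 libraries (edgeR adjusted p = 0.0933). It was also lost in 3 of the 8 fits that left out 1 library, with changes of 1.37 to 1.89 over the 8. In RPKM the libraries of the cell types overlapped at each source. Mean Spi1 in healthy blood was 32.2 RPKM in neutrophils and 23.6 RPKM in monocytes. Under alternative analyses its log2 difference ran from 0.44 to 1.41 in healthy blood. It ran from 0.88 to 1.74 in tumor-bearing blood and from 0.47 to 1.53 in tumors. Cebpb also had an edgeR difference in favour of neutrophils at each source, and the main test called it in none. In healthy blood its mean level was 6.97 RPKM in neutrophils and 7.37 RPKM in monocytes, and the libraries overlapped. Alternative analyses of Cebpb in healthy blood gave log2 differences of -0.25 to 0.72. Its log2 difference was 0.66 ± 0.34 in healthy blood (edgeR adjusted p = 0.132), 1.32 ± 0.32 in tumor-bearing blood (edgeR adjusted p = 0.00606), under the fold threshold, and 1.39 ± 0.51 in tumors (edgeR adjusted p = 0.127). Without the epithelial-rich tumor neutrophil library 1 Cebpb was called in tumors, the only gain among 8 fits that left out 1 library. Over those fits the change ran from 1.12 to 1.63, with edgeR adjusted p of 0.00689 to 0.312.

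The lists written for regulators beside the members showed which other genes separated the cell types. Of 17 further myeloid regulators tested, 9 were called in healthy blood, 4 higher and 5 lower in neutrophils, where 37.1% of all genes were called. Irf4, at -6.55, and Tfec, at -5.90 on the log2 scale, had the largest differences, and both were higher in monocytes. Among the genes known as targets of PU.1 and C/EBP factors, Csf3r, the G-CSF receptor, had a log2 difference of 5.14 ± 0.19 (SE) in favour of neutrophils and Csf1r, the M-CSF receptor, one of -1.81 ± 0.18 (edgeR adjusted p = 6.0e-07 and 4.5e-05). Cd14 was higher in neutrophils by 3.96 ± 0.40 (edgeR adjusted p = 4.9e-05). The median log2 difference was -0.33 over the regulators tested and 0.89 over the targets tested, beside -0.07 over all genes.

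The next comparison asked what changed when circulating cells of tumor-bearing mice were set beside the same cell type in the tumor. Tumor cells had been released from minced tissue by enzymes, while blood had only its red cells lysed. Tumor and preparation can therefore not be told apart in these comparisons. Cebpb and Klf4 rose in both cell types and no other member was called. In neutrophils 2 of 9 members tested passed, against 16.3% of all genes, and in monocytes 2 of 7, against 11.7%. With so few genes tested these shares were read as near the background.

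Cebpb (chr2:167688915-167690418, + strand) was measured at 10.1, 5.67, 4.85 and 6.53 RPKM in tumor-bearing blood neutrophils and at 7.77, 20.0, 36.6 and 25.9 RPKM in tumor neutrophils. Of the 4 tumor libraries 3 were above all blood libraries and the epithelial-rich library 1 was not. The log2 change was 1.85 ± 0.50 (SE, edgeR adjusted p = 0.0280), and 2.18 without library 1 (edgeR adjusted p = 0.00255). Tumor epithelial libraries held Cebpb at 0.207 to 0.844 RPKM. The part of epithelial RNA in the change, or of the macrophage markers given below, was not tested. The call was lost when any of tumor neutrophil libraries 3 or 4 or blood neutrophil libraries 2, 3 or 4 was left out, with edgeR adjusted p of 0.0521 to 0.0901 and log2 changes of 1.61 to 1.85. With all 8 libraries it was lost in 4 of 9 alternative analyses: limma-voom (adjusted p = 0.0705), 1 edgeR model of all 40 libraries (adjusted p = 0.0513), the replicate number as a block (edgeR adjusted p = 0.123) and limma on log2(RPKM + 1), where the change was 1.46.

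In monocytes Cebpb was at 5.86, 2.67, 5.26 and 4.19 RPKM in blood and at 11.8, 14.2, 8.93 and 17.99 RPKM in tumors, with no overlap. The log2 change was 1.81 ± 0.31 (SE, edgeR adjusted p = 0.00268) and lay between 1.65 and 1.93 when any 1 library was left out. The call was lost with 1 model of all 40 libraries (edgeR adjusted p = 0.0658) and on log2(RPKM + 1), where the change was 1.37. Tumor neutrophils, at 22.6 ± 12.0 RPKM (SD, n = 4), and tumor monocytes, at 13.2 ± 3.83 RPKM, were the 2 highest of the 10 groups for Cebpb and overlapped.

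Klf4 was at 0.0766, 0.173, 0.156 and 0.282 RPKM in tumor-bearing blood neutrophils and at 7.99, 0.246, 1.71 and 1.51 RPKM in tumor neutrophils. The highest tumor value was in library 1, and library 2 lay inside the blood range. The log2 change was 3.82 ± 0.86 (SE, edgeR adjusted p = 0.0122), and 2.74 without library 1 (edgeR adjusted p = 0.0331). The call was lost with the replicate number as a block (3.14, edgeR adjusted p = 0.0727) and with limma on log2(RPKM + 1) (1.34, adjusted p = 0.0831). Klf4 was abundant in tumor epithelial cells, at 12.5, 9.91, 18.5 and 10.7 RPKM. The library with the most epithelial RNA had the most Klf4, while library 2, with 13.8% epithelial markers, had less Klf4 than library 4 with 5.01%, and the part of epithelial RNA in the rise was not tested. Macrophage markers also moved, from 17.1 to 21.9 RPKM in summed level in blood neutrophils to 32.7 to 41.7 RPKM in tumor neutrophils, with 5 to 7 of 7 markers detected in place of 2 to 3. Their part in the rise was not tested.

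In monocytes Klf4 was at 10.4, 6.58, 3.65 and 4.63 RPKM in blood and 11.7, 19.6, 17.8 and 17.6 RPKM in tumors. The groups did not overlap, and the log2 change was 1.67 ± 0.31 (SE, edgeR adjusted p = 0.00459). Without blood monocyte library 3 it was 1.47, under the fold threshold, as it was with limma on log2(RPKM + 1), at 1.33, and on log2(RPKM + 0.1), at 1.47. The tumor monocyte library with 0.695% epithelial markers held 11.7 RPKM, the lowest tumor value, where the highest blood value was 10.4 RPKM. The other 3, with 3.59% to 14.9%, held 17.6 to 19.6 RPKM. Monocyte markers summed to 125 to 164 RPKM in tumor monocytes and 231 to 370 RPKM in blood monocytes of tumor-bearing mice. The part of epithelial RNA or of this shift in the Klf4 rise was not tested. An interaction term asked if a member rose by unequal amounts in the 2 cell types. None of 9 members passed (edgeR adjusted p of 0.152 for Irf8 and 0.182 for Klf4, the lowest), against 3.99% of all genes, and at an unadjusted p under 0.05 both Irf8 and Klf4 did.

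**Figure D2:**
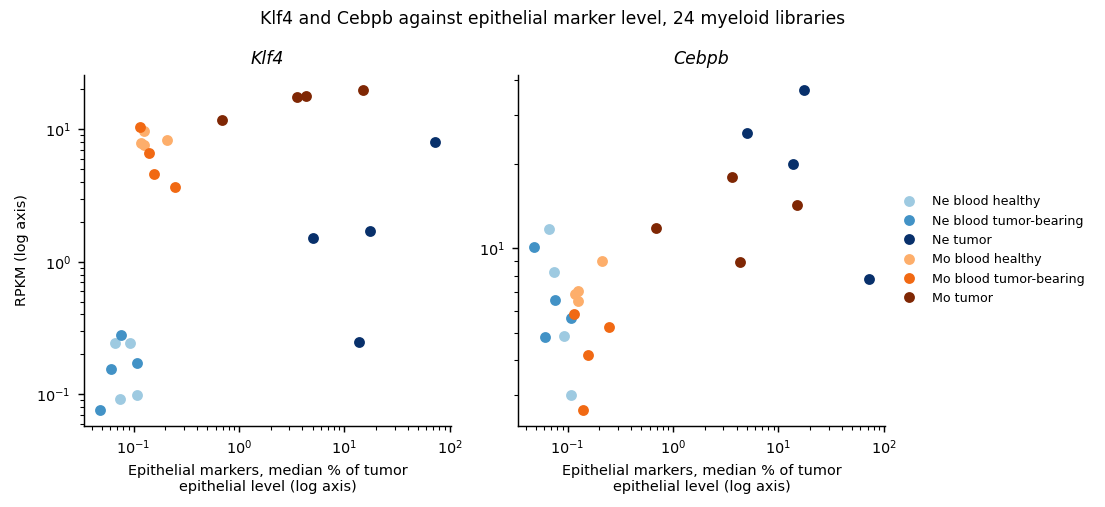
Klf4 (left) and Cebpb (right) in RPKM against the median level of 11 epithelial markers, as a percentage of the mean in tumor epithelial cells, for 24 neutrophil and monocyte libraries on log axes. Tumor neutrophil library 1, at 71.9%, has the highest Klf4 and the lowest Cebpb of the 4 tumor neutrophil libraries.

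The promoters of Cebpb, Klf4 and Irf8 are shown because Cebpb and Klf4 were each called higher in tumor than in blood cells, while Irf8 marked the monocyte side. Over the 40 libraries the levels of Cebpb and Klf4 had a correlation of -0.38. Each run is the 250 bases before the gene's start in RefSeq on GRCm38.p6, read 5′ to 3′ on the gene's strand, and 5 of the 9 members had an entry. Capitals mark matches, on either strand, to TTGCNNAA (a C/EBP site), TGANTCA (AP-1), TTCNNNGAA (STAT), GAGGAA (PU.1) or TGACG (the core of a cyclic AMP response element), where TGACG was added after the sequences had been read. No match overlapped another.
Cebpb, chr2:167688665-167688914, + strand: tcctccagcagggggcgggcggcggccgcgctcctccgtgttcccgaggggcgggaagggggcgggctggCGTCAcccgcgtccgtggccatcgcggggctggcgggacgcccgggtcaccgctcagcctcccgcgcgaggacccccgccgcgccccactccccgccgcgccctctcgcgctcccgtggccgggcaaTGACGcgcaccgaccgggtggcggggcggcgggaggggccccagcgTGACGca
Klf4, chr4:55532476-55532725, - strand: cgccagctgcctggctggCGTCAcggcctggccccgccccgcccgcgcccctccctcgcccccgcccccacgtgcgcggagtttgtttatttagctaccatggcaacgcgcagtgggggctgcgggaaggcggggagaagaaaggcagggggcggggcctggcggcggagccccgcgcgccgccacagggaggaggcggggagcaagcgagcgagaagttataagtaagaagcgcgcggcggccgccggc
Irf8, chr8:120736108-120736357, + strand: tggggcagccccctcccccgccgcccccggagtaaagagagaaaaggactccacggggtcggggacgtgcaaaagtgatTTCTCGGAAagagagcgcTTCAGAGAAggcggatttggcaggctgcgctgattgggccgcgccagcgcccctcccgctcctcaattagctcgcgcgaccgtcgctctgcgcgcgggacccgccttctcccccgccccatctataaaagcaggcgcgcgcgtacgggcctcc

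The Cebpb window held 3 matches to TGACG and the Klf4 window 1, and 17.8% of the 32851 promoters in the table held at least 1. The entries of Cebpa and Gfi1, not shown, held 0. Since TGACG was chosen after these sequences had been read, the share cannot weigh its matches. The Irf8 window held 2 matches to TTCNNNGAA, which 7.02% of promoters held. A further Irf8 entry, at chr8:120738389-120738688, held 0 matches to TTCNNNGAA and is not shown. None of the 3 windows matched the C/EBP, AP-1 or PU.1 letters, found in 9.56%, 6.75% and 23.2% of promoters. The windows were rich in G and C, at 81.6% for Cebpb, 74% for Klf4 and 67.2% for Irf8, where the median promoter had 52.4%.

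Cebpd did not follow Cebpb into the tumor. In neutrophils it was at 11.0, 16.2, 16.6 and 16.4 RPKM in blood and 3.79, 12.9, 4.48 and 3.97 RPKM in tumors, a log2 change of -0.96 ± 0.59 (SE) that did not pass (edgeR adjusted p = 0.295). Library 2 was the exception in the tumor, and without it the change was -2.07 (edgeR adjusted p = 0.00124). In monocytes the change was -0.46 ± 0.45 (edgeR adjusted p = 0.534). Since both genes encode C/EBP factors that bind the same DNA letters, their ratio within a library was taken, a measure chosen after the values had been seen, which does not depend on how libraries are scaled. The ratio of Cebpb to Cebpd was 0.920, 0.350, 0.292 and 0.399 in tumor-bearing blood neutrophils and 2.05, 1.55, 8.16 and 6.52 in tumor neutrophils. It was 2.10, 0.962, 1.91 and 1.95 in blood monocytes and 17.5, 5.04, 7.38 and 10.1 in tumor monocytes. Cebpd exceeded Cebpb in all 4 blood neutrophil libraries and the order was turned in all 4 tumor libraries.

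On the log2 scale the mean ratio was higher in tumor neutrophils by 3.03, an 8.19-fold difference, and in tumor monocytes by 2.44, a 5.43-fold difference. Since the measure was chosen on these values, the differences are a description. An exact permutation test was run on each, but its p-value is not used, since it cannot weigh a measure picked this way. The tumor epithelial libraries had ratios of 0.0483 to 0.220, and the part of epithelial RNA in the differences was not tested.

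**Figure D3:**
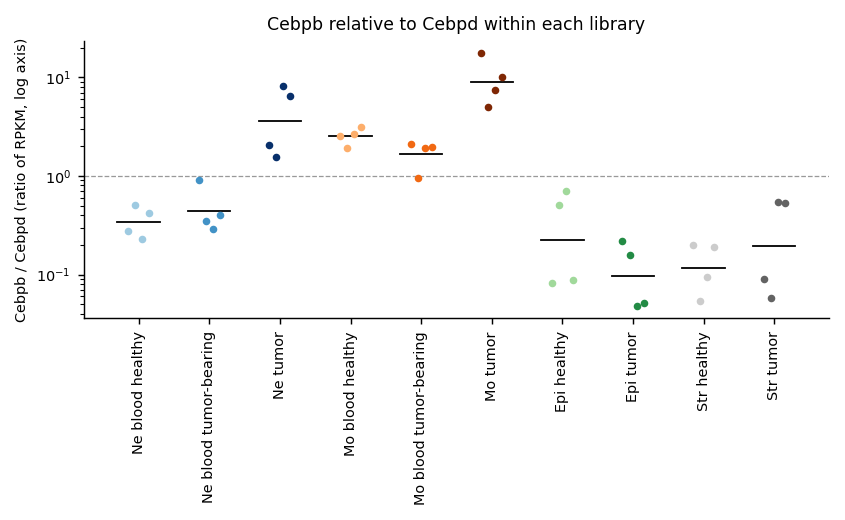
Ratio of Cebpb to Cebpd (RPKM over RPKM, log axis) in each of 40 libraries, with 4 points per group and a line at the geometric mean. All 8 tumor neutrophil and tumor monocyte libraries lie above 1, from 1.55 to 17.5, and above every blood library of the same cell type.

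None of the remaining members was called. Irf8 had a log2 change of 2.20 ± 1.17 (SE) in neutrophils that did not pass (edgeR adjusted p = 0.223), at levels of at most 0.340 RPKM. It was called with 1 model of all 40 libraries (2.05, edgeR adjusted p = 0.0290), and without the epithelial-rich library 1 the change was 0.91 (edgeR adjusted p = 0.611). Cebpa in monocytes was at 4.48, 1.89, 2.07 and 1.24 RPKM in blood and 0.445, 1.14, 0.709 and 0.847 RPKM in tumors. The groups did not overlap, but the log2 change of -1.36 ± 0.44 (SE) did not pass (edgeR adjusted p = 0.0605). Spi1 changed by -0.55 ± 0.44 in neutrophils and -0.12 ± 0.28 in monocytes, and Maf by -0.16 ± 0.82 and 0.78 ± 0.41, with edgeR adjusted p of 0.230 to 0.915. Irf8 in monocytes had a change of -0.85 ± 0.43 (edgeR adjusted p = 0.215).

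Genes listed as regulators, relatives or targets were read beside them. In neutrophils 3 of 15 further regulators were called, against 16.3% of all genes, all higher in tumors: Nr4a1 by 4.67, Egr1 by 3.11 and Zeb2 by 2.05 on the log2 scale. In monocytes 4 of 18 were higher, where 11.7% of all genes were called, led by Egr2 at 4.62, Egr1 at 2.97 and Id2 at 2.22. Of the bZIP relatives of the members, which include the small Maf proteins, Maff rose by 3.48 in neutrophils and 3.18 in monocytes and Mafk by 2.12 and 1.77. The known targets Cd14 and Il10 were higher in tumors, by 2.97 and 5.63 in neutrophils and by 4.62 and 4.29 in monocytes, and Il6 was higher by 4.67 in monocytes. Maf, which is known to induce Il10, was not called in either cell type. Median log2 changes over the bZIP relatives were 1.37 in neutrophils and 1.53 in monocytes, beside 0.11 and -0.03 over all genes.

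Secondary granule genes, known targets of C/EBPε, went the other way. In neutrophils 4 of 5 were lower in tumors, with log2 changes of -4.81 for Camp, -4.11 for Ltf and -3.67 for Chil3. In monocytes 3 of 5 were lower, where 11.7% of all genes were called, with -6.92 for Camp, -6.37 for Ngp and -3.34 for Ltf. Summed neutrophil markers were also lower in the tumor, without overlap, at 1905 to 12250 RPKM against 15159 to 19761 RPKM in blood neutrophils, and at 30.7 to 43.8 RPKM in tumor monocytes against 58.7 to 176 RPKM in blood monocytes. Their part in the granule gene values was not tested.

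Blood of tumor-bearing mice was compared with blood of healthy mice to ask whether the members had changed before cells entered a tumor. None of 8 members tested was called in neutrophils, against 4.01% of all genes, and none of 8 in monocytes, against 0.209%. At an unadjusted p under 0.05 edgeR had 0 members in neutrophils and 1, Cebpb, in monocytes, and DESeq2 and limma-voom called 0 in either. In neutrophils Spi1 was 27.3, 36.8, 27.4 and 37.2 RPKM in healthy and 33.2, 38.1, 31.6 and 57.1 RPKM in tumor-bearing mice, a log2 change of 0.36 ± 0.23 (SE, edgeR adjusted p = 0.402). Cebpb changed by 0.03 ± 0.36 and Cebpd by -0.23 ± 0.21 (edgeR adjusted p = 0.972 and 0.583). In monocytes Cebpb was 9.01, 6.51, 6.90 and 7.07 RPKM in healthy and 5.86, 2.67, 5.26 and 4.19 RPKM in tumor-bearing mice. The latter were lower without overlap, with a log2 change of -0.62 ± 0.28 that did not pass (edgeR adjusted p = 0.507). In the interaction, which asks whether this change differed between the cell types, edgeR called 0 of 9 members, against 0.969% of all genes, and 0 at an unadjusted p under 0.05.

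All 5 secondary granule genes were nevertheless higher in tumor-bearing blood neutrophils, Chil3 by 5.34, Ngp by 5.22 and Ltf by 5.13 on the log2 scale. In blood monocytes 3 of 5 were higher, Ngp by 10.19, Lcn2 by 4.94 and Ltf by 4.65. Of all genes tested, 4.01% were called in neutrophils and 0.209% in monocytes. Cebpe (chr14:54710360-54712174, - strand), the factor known to switch these genes on in bone marrow, was measured at 0.0504, 0.617, 0.373 and 0.303 RPKM in healthy and 0.274, 0.426, 0.0543 and 0.881 RPKM in tumor-bearing blood neutrophils. The groups overlapped and the log2 change was 0.33 ± 0.81 (SE, edgeR adjusted p = 0.865). Its highest value in any library was 1.12 RPKM, in blood monocyte library 2 of tumor-bearing mice. Neutrophil markers were higher too. They summed to 15159 to 19761 RPKM in tumor-bearing and 3467 to 8284 RPKM in healthy blood neutrophils, without overlap, and to 58.7 to 176 RPKM and 9.46 to 90.4 RPKM in the blood monocyte libraries. Their part in the granule gene values was not tested. Of the 13 further regulators tested in neutrophils, 1 was called, Irf5, with a change of -1.72 ± 0.35 (edgeR adjusted p = 0.0203).

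Gfi1 (chr5:107716657-107726036, - strand), which represses monocyte genes during neutrophil formation, had the lowest peak of the 9 genes, although Cebpe had lower means in the epithelial and stromal groups. No library exceeded 0.378 RPKM of Gfi1, and in tumor monocytes it had at most 3.64 expected counts. It had too few reads for the test in 6 of the 9 comparisons of groups, and Cebpe in 4. Neither gene was called in a comparison of groups. Gfi1 came nearest in stromal cells, at 0.331, 0.158, 0.231 and 0.125 RPKM in tumor and 0.0166, 0.0378, 0.137 and 0.0185 RPKM in healthy libraries. Its log2 change was 2.42 ± 0.76 (SE) and did not pass in edgeR (adjusted p = 0.0816). It was called in 2 of 10 alternative analyses, DESeq2 (adjusted p = 0.00782) and limma-voom (adjusted p = 0.0386). Of the 8 fits that left out 1 library, 1 called it. Mean Gfi1 was 0.152 RPKM in healthy and 0.0984 RPKM in tumor epithelial cells. Epithelial markers were at 12.1% to 94.0% in the tumor stromal libraries, and their part in this change was not tested.

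The members were also measured in the epithelial and stromal cells of tumors and healthy colon. Of 7 members tested in epithelial cells 1 was called, against 15.4% of all genes. Cebpd was 0.882, 0.831, 0.511 and 0.284 RPKM in healthy and 3.84, 3.22, 10.4 and 3.98 RPKM in tumor epithelial cells, without overlap, a log2 change of 2.28 ± 0.41 (SE, edgeR adjusted p = 0.00273). Irf8 changed by -1.30 ± 0.25 with an edgeR adjusted p of 0.00396, under the fold threshold. Klf4, a colonocyte differentiation factor, was 9.24, 15.3, 14.4 and 2.99 RPKM in healthy and 12.5, 9.91, 18.5 and 10.7 RPKM in tumor epithelial cells, with a change of -0.25 ± 0.17 that did not pass (edgeR adjusted p = 0.331). Healthy epithelial library 4, the lowest of its group for Cebpd and Klf4, had 83.9% mitochondrial counts and the lowest epithelial markers of the healthy libraries, at 44.7% of the tumor epithelial mean against 130% to 189% in the others. Without it, the Cebpd change was 2.52 (edgeR adjusted p = 0.00356). Endothelial markers summed to 4.31 to 4.66 RPKM in tumor and 0.0463 to 0.366 RPKM in healthy epithelial libraries, and their part in these values was not tested.

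In stromal cells 2 of 8 members were called, against 8.4% of all genes, both lower in tumors. Klf4 was 54.3, 46.0, 43.1 and 90.2 RPKM in healthy stroma, the highest level of the gene in any group, and 13.9, 10.5, 19.2 and 16.7 RPKM in tumor stroma. Maf was 1.66, 2.14, 1.56 and 3.40 RPKM in healthy and 0.301, 0.191, 0.262 and 0.482 RPKM in tumor stroma. Neither gene's groups overlapped, and the log2 changes were -1.62 ± 0.32 (SE) for Klf4 and -2.50 ± 0.39 for Maf (edgeR adjusted p = 0.0165 and 0.00803). The cells of this gate differed between the groups: fibroblast markers summed to 497 to 2671 RPKM in healthy and 6.93 to 26.2 RPKM in tumor stromal libraries, and epithelial markers reached 94.0%, 49.2%, 20.1% and 12.1% of their tumor epithelial level in tumor libraries 1 to 4. Their part in these differences was not tested. With the 2 epithelial-richest libraries left out, Maf changed by -2.28 (edgeR adjusted p = 0.0384) and Klf4 by -1.43 (edgeR adjusted p = 0.0717), while Spi1 changed by 3.94 (edgeR adjusted p = 0.0192), where with all libraries it was 3.06 ± 0.99 (edgeR adjusted p = 0.0896). Neutrophil markers ran from 8.45 to 1517 RPKM in tumor stromal libraries and from 6.34 to 43.3 RPKM in healthy ones.

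**Figure D4:**
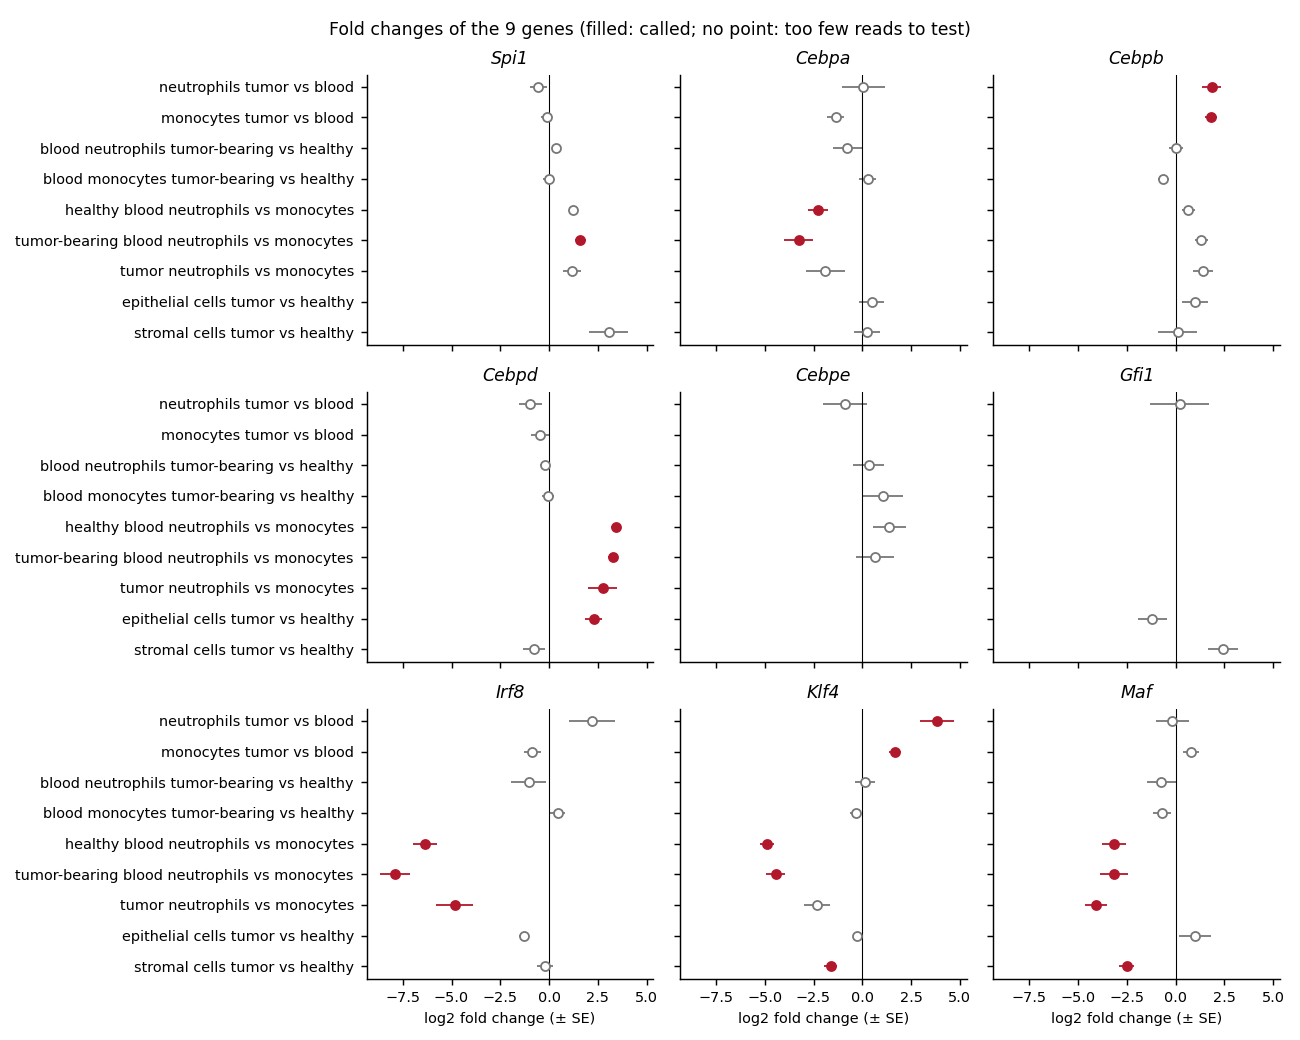
Log2 fold change ± SE (horizontal axis) of the 9 genes in 9 comparisons of 4 against 4 libraries, from edgeR. Filled points passed an adjusted p of 0.05 and an absolute change of 1.5, open points did not, and a missing point means too few reads. Cebpb and Klf4 are to the right in both tumor against blood comparisons, and Irf8, Klf4 and Maf are to the left in all 3 comparisons of neutrophils with monocytes.

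Genes whose levels were most like those of a member were found by Pearson correlation of log2(RPKM + 1) over the 40 libraries, which share cell types, amplification and depth, so the values are a description. Spi1 was most like Itgb2 (r = 0.99), the leukocyte integrin β chain, Fgr (r = 0.99), a myeloid kinase, and Gm9025 (r = 0.99). Cebpb was most like Plek (r = 0.93), Rab8b (r = 0.93) and Birc3 (r = 0.92), an inhibitor of apoptosis. For Irf8 the genes were Prcp (r = 0.95), Dennd1a (r = 0.95) and Limd1 (r = 0.94), and for Klf4 they were Calu (r = 0.97), Mat2a (r = 0.97) and Gm9523 (r = 0.96). Maf was most like Dse, Pid1 and Ms4a4d (r = 0.93, 0.93 and 0.92), and Cebpa like Erp29, Fam78a and Wdr41 (r = 0.92, 0.90 and 0.89). Cebpd had no gene above 0.84, with Arid5a at 0.84, Zmynd11 at 0.83 and Midn at 0.83. The low Cebpe reached 0.78 with Ttyh3, 0.77 with Unc13d and 0.77 with Mark2, and Gfi1 0.70 with Ccdc68 and 0.70 with Gm43038. Among the members, Spi1 and Cebpb had a correlation of 0.83 and Irf8 and Maf one of 0.80.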

How the data were processed

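The authors sorted the cells by FACS, amplified the RNA to cDNA (NuGEN Ovation V2), sequenced it, mapped the reads to mm10 with Bowtie2 and counted them with HTSstation. They deposited expected counts, not normalized, and RPKM values for 45706 genes, and 45143 genes were matched to a symbol of GENCODE M21. Of the nonzero counts 99.6% were not whole (tolerance 1e-06), and they were rounded. The strand use of the counting is not given in the sources used here, and Cebpa, Cebpb, Cebpd, Gfi1 and Maf overlap a gene on the other strand, so those reads are uncertain. The divisor of the deposited RPKM values is also not given, which can shift levels between libraries but not the ratio of genes within one.

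The 4 libraries of each group were compared with edgeR 4.0.16 in R 4.3.3 (filterByExpr, TMM, robust quasi-likelihood test, Benjamini-Hochberg over all genes tested). Files do not show whether libraries of a group came from separate animals in every case, so p-values measure the spread between these libraries. Interactions were called on the adjusted p alone. The fits were tested on simulated data. The members and gene lists were chosen with earlier results of these data known. At most 3 called genes of each list and comparison, those with the largest change, were named, and the 3 genes most like each member. Some genes that this rule takes are not reported here. The fit does not use the animals in the library titles, since Xist differed between some blood and epithelial libraries titled with the same animal. It did not differ in this way between tumor neutrophil and tumor monocyte libraries 2 to 4, which share animal titles, so the fit with the animal as a block is given beside those results where it changed a call. Alternatives were DESeq2 1.42.0, limma-voom (limma 3.58.1), RLE size factors, no filter, 1 model of all 40 libraries, blocks, limma on log2(RPKM + 1) and log2(RPKM + 0.1), the adjusted p alone, and leaving out each library. An alternative without tumor stromal libraries 1 and 2 was added after seeing the data.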

Additional observations from a re-analysis of the deposited data

Results flagged for a closer look

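In 10 of 90 combinations of gene and group, 1 of 4 libraries stood far from the other 3 by Dixon's test at the 95% level, where chance gives about 1 in 20. Of these, 4 were Cebpd. Tumor neutrophil library 2 had 12.9 RPKM where the others had 3.79 to 4.48, and tumor epithelial library 3 had 10.4 RPKM where the others had 3.22 to 3.98. Blood neutrophil library 1 of tumor-bearing mice was low, at 11.0 RPKM against 16.2 to 16.6, and blood monocyte library 4 of tumor-bearing mice at 2.14 RPKM against 2.75 to 2.79. Without tumor neutrophil library 2, Cebpd was lower in tumor than in blood neutrophils with a log2 change of -2.07 (edgeR adjusted p = 0.00124). Maf was high in healthy blood monocyte library 2, at 4.08 RPKM against 1.74 to 2.01, and in healthy blood neutrophil library 1, at 0.384 RPKM against 0.0702 to 0.122. The rest are low levels: Gfi1 at 0.0758 RPKM in blood monocyte library 3 of tumor-bearing mice, at 0.0782 RPKM in healthy blood monocyte library 1 and at 0.286 RPKM in tumor epithelial library 3, and Cebpe at 0.00475 RPKM in healthy epithelial library 1, where the other libraries were at 0.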

How the results depend on the processing

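Over 88 results of a member in a comparison and 1653 values under alternatives, 1582 kept their direction or their lack of a call, 45 lost a call, 26 gained one and 0 called values reversed. In 24 results that were not called the sign changed in 84 values. The number of members called was 0 in both comparisons of blood under every alternative run. Tumor against blood neutrophils, 2 as reported, gave 1 with limma-voom, 0 with limma on log2(RPKM + 1) and 1 to 3 when 1 library was left out. Tumor against blood monocytes, 2 as reported, gave 1 with 1 model of all 40 libraries, 0 with limma on log2(RPKM + 1), 1 with limma on log2(RPKM + 0.1), and 1 to 3 with 1 library left out. Tumor-bearing blood neutrophils against monocytes, 6 as reported, gave 3 with limma on log2(RPKM + 1). Tumor neutrophils against monocytes, 3 as reported, gave 5 with 1 model of all 40 libraries and 2 to 5 with 1 library left out, 5 without tumor neutrophil library 1. Epithelial cells gave 2 on the adjusted p alone in place of 1. Stromal cells, 2 as reported, gave 4 with DESeq2, 1 with limma on log2(RPKM + 1) and 1 to 3 with 1 library left out, 1 without tumor library 2 or healthy library 4. The difference between the cell types in the change from blood to tumor gave 2 with 1 model of all 40 libraries and 0 to 1 with 1 library left out, 1 without tumor neutrophil library 2. The pseudocount shrinks low genes by construction. For the other alternatives the cause was not tested.

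With the replicate number as a replicate block, 0 members were called between tumor and blood neutrophils, and the other counts of members stayed within 1.5 times. Correlations of same-numbered libraries did not exceed 0.1 in every pair of any comparison, so the number was not taken as a pairing. Some same-numbered libraries did share an animal title. These were libraries 2 to 4 of tumor neutrophils and monocytes, and libraries 1 of tumor and blood monocytes. In blood neutrophils and monocytes they were libraries 1, 3 and 4 of tumor-bearing mice and 4 of healthy mice, some as pools. With the animal in the titles as a block, the number of members called between neutrophils and monocytes stayed at 5 in healthy blood, 6 in tumor-bearing blood and 3 in tumors, where Klf4 was gained and Cebpd lost.

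Genes called among all genes ranged over 680 to 5995 for tumor against blood neutrophils (2229 as reported), 520 to 2803 for monocytes (1781), 130 to 871 for blood neutrophils (536) and 4 to 263 for blood monocytes (32). For neutrophils against monocytes the ranges were 1635 to 7633 in healthy blood (5576), 1406 to 7407 in tumor-bearing blood (5499) and 518 to 4176 in tumors (1117). They were 575 to 3632 for epithelial cells (2476), 555 to 2707 for stromal cells (1602), and 347 to 2148 (696) and 28 to 657 (163) for the differences between cell types in the change to tumor and in blood. Limma on log2(RPKM + 1) gave the lowest count in 7 of the 9 comparisons of groups. Depth limits Cebpe and Gfi1, which had too few reads in several comparisons.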
